A study of Mus musculus with 12 samples.

Results

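The LPS response of spleen labelled DUSP1-/- was measured on 6 of the 12 arrays of a mouse study. The 3 knockout spleens of the LPS group were taken 6 h after the mice had received E. coli LPS into the peritoneum (10 µg for each gram of mouse), and the 3 knockout control spleens came from mice without treatment. Every one of the 22626 non-control probe sets of the Affymetrix MOE430A 2.0 array entered the comparison, and they name 12393 genes. The other 6 arrays hold the same pair of groups for spleen labelled DUSP1+/+, called wild type here. Each array came from the spleen of 1 mouse, so the replicates are separate animals. The controls were untreated rather than injected with vehicle, so LPS and the injection itself cannot be told apart. Strain, age, sex and the design of the deleted allele are not given in the sources used here. Both knockout groups, controls included, carry the same DUSP1-/- label, and whole spleen holds many cell types.

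LPS is a component of the outer membrane of Gram-negative bacteria that is bound by CD14 and sensed by the TLR4 and MD-2 receptor. The receptor activates NF-kB, the MAP kinases and, through the adaptor TRIF, interferon regulatory factors, which switch on cytokine, chemokine and interferon genes. DUSP1, also called MKP-1, is a phosphatase that dephosphorylates and inactivates p38 and JNK MAP kinases. Its gene is itself switched on by LPS, and it is known as a brake on cytokine production by macrophages. The spleen filters blood through red pulp macrophages and sinus endothelium and houses B and T lymphocytes in its white pulp.

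LPS was followed in knockout spleen by very large rises of chemokine, cytokine, matrix protease and interferon-response genes and by smaller but more numerous falls. A gene was said to rise or fall where limma's adjusted p was under 0.05, with p-values adjusted by the Benjamini-Hochberg method over all 22626 probe sets. Of the 12393 genes, 686 rose (5.54%) and 1203 fell (9.71%), 15.2% in all. The falls were shallower: the median log2 change was 1.66 among the genes that rose and -1.32 among those that fell. At least 2-fold changes were seen for 588 of the rises and 952 of the falls, at least 8-fold changes for 91 and 10, and at least 32-fold changes for 17 and 0. The 3 LPS arrays did not overlap the 3 controls for 3576 genes (28.9%), being above them for 1395 (11.3%) and below them for 2181 (17.6%). The split depended on the scaling of the arrays: rises were 36.3% of the called genes as deposited, but 55.1% (931 higher and 759 lower) with every array shifted to a common median, 44.1% (781 and 991) after quantile normalization and 47.2% (874 and 979) after cyclic loess. The median shift moved the median log2 change of all genes from -0.06 to 0.15, and the changes below are on the deposited scale. No called gene changed sign under those 3 scalings. Without knockout LPS 1 there were 419 rises and 569 falls, and without knockout LPS 3 there were 660 falls.

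**Figure D1:**
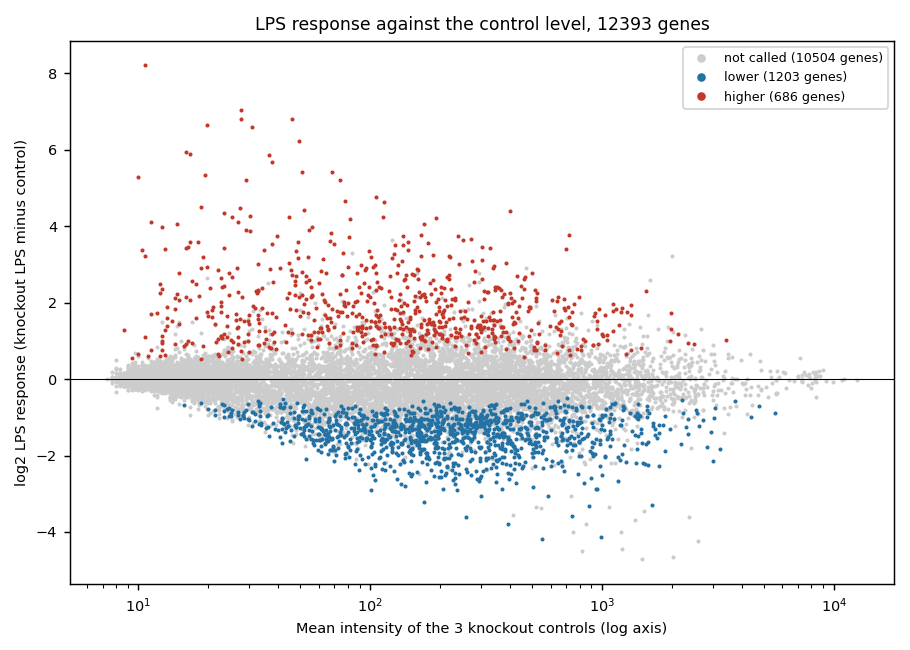
Each point is 1 of 12393 genes, with the mean intensity of the 3 knockout controls on a log axis and the log2 LPS response (knockout LPS minus knockout control) on the vertical axis. The 686 genes called higher reach 8.21 and include 124 with a control mean under 30.49, whereas the 1203 genes called lower have a median of -1.32.

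Genes that rose had lower control levels than genes that fell, and some were near the bottom of the scale. The median of the control mean intensity was 126 among genes that rose, 207 among genes that fell and 92 over all genes. Of the 686 risen genes, 124 had a control mean under 30.49, the 40th percentile of the mean levels of all probe sets. Deposited intensities of about 10 lie near the bottom of the scale, whose lowest value is 6, and the files used here give no detection call. A fold change from such a level can depend on the background correction of the array.

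The 6 arrays separated by treatment, and the controls were the more variable group. Correlations between arrays over all probe sets were 0.909 to 0.95 among the 3 knockout controls and 0.965 to 0.989 among the 3 knockout LPS arrays. The median SD of a probe set was 0.349 and 0.218 on the log2 scale. The first principal component of these 6 arrays (50.2% of the variance) parted LPS from control, and the second (24.3%) placed control 1 and control 2 at its opposite ends. Marker genes of tissues outside the spleen also differed between arrays. The 18 pancreas markers had mean log2 intensities of 10.6, 4.99 and 7.74 in controls 1 to 3 and 4.6, 4.76 and 4.69 in LPS arrays 1 to 3. For the 18 liver markers these were 4.19, 8.6 and 6.47 and 5.86, 8.27 and 7.46, and for the 11 lung markers 4.18, 6.18 and 5.79 and 5.99, 4.37 and 5.47. Red cell precursor markers were at 10.2, 6.44 and 5.81 and 6.66, 7.41 and 6.96. Control 1 thus had the highest pancreas and red cell precursor levels and the lowest liver level, and control 2 the highest liver level. The part of these differences in the results below was not tested. Markers of spleen cells were present on all 6 arrays, as the B cell list (8.69 to 10.0) and the list of red pulp and marginal zone macrophages (8.54 to 9.54) show.

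**Figure D2:**
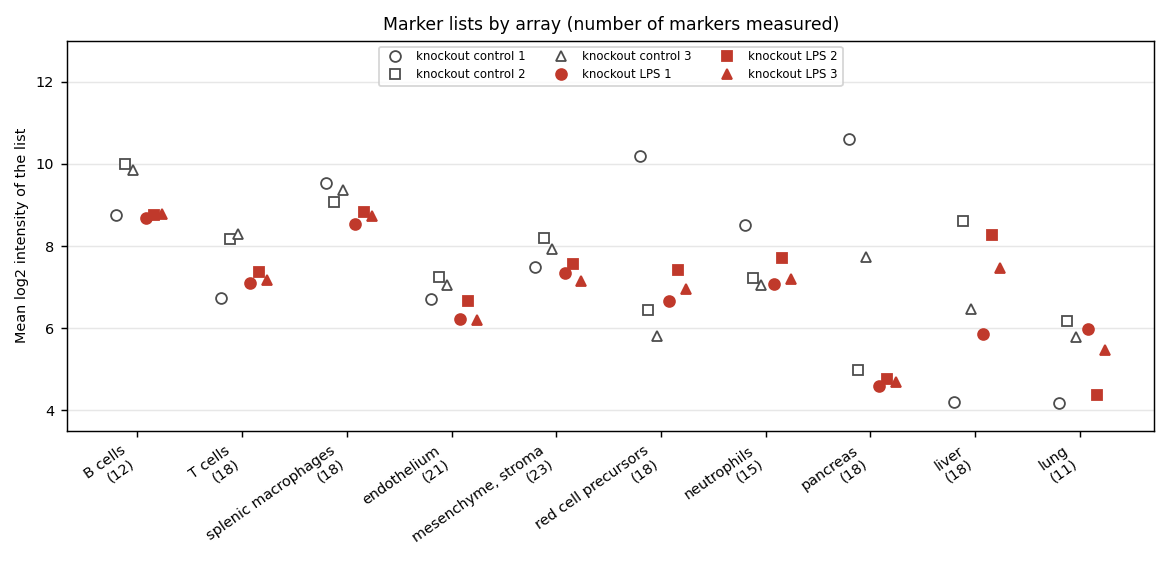
Mean log2 intensity of 10 marker lists on each knockout array, with the number of markers measured in brackets, open symbols for controls and filled symbols for LPS. Pancreas markers spread from 4.99 to 10.6 among the controls but stay at 4.60 to 4.76 after LPS, and red cell precursor markers are highest in control 1.

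Dusp1 itself was read on the 6 arrays. Its probe set gave 677, 1528 and 1443 in knockout controls 1 to 3 and 4963, 2948 and 4996 in knockout LPS arrays 1 to 3. The LPS arrays lay above the controls, with LPS 2 the lowest of them, and the rise was 1.87 ± 0.41, adjusted p = 0.0132, where ± is limma's standard error of the log2 difference here and below. It rose in wild-type spleen too (1.55 ± 0.41, adjusted p = 0.0487). The position of the probe set relative to the deleted part of the gene is not known here, so this signal checks no label and does not show that DUSP1 protein was made. The call was lost without LPS 1 or LPS 3, with an adjusted p of up to 0.0596.

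The promoters of 6 genes that rose show which letters of known transcription factor motifs lie just before their start sites. These genes were picked from the named rises that hold a motif match, so they do not show how common a motif is. Other named rises, such as Ccl3 and Oasl1, held no match. Below are the 250 bases before the RefSeq start of these 6 genes, in the GRCm38.p6 build and in the direction of the gene, with motif matches in capitals. The first set comprises the neutrophil chemokine genes Cxcl2 (chr5:90903649-90903898, plus strand) and Cxcl1 (chr5:90890995-90891244, plus strand) and the cytokine gene Il6 (chr5:30012864-30013113, plus strand), shown for matches to the kB motif bound by NF-kB.
Cxcl2: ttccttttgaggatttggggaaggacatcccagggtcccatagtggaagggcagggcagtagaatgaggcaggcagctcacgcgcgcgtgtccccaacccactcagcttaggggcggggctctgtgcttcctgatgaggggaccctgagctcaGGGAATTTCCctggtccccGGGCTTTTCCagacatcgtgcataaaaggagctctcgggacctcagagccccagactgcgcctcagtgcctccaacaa
Cxcl1: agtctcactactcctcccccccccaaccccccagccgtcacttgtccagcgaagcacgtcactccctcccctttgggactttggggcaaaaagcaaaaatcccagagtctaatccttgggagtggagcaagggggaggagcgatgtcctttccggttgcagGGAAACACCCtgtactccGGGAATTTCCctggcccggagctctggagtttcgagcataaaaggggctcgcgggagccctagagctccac
Il6: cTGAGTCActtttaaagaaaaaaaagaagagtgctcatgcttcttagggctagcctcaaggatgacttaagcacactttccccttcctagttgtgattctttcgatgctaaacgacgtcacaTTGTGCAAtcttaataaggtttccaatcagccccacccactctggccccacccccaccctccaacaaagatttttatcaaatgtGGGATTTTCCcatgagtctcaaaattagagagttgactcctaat
The second set comprises Ifit3 (chr19:34583279-34583528, plus strand), Gbp2 (chr3:142620413-142620662, plus strand) and Cxcl10 (chr5:92348890-92349139, minus strand), shown for matches to the core of the interferon-stimulated response element (ISRE).
Ifit3: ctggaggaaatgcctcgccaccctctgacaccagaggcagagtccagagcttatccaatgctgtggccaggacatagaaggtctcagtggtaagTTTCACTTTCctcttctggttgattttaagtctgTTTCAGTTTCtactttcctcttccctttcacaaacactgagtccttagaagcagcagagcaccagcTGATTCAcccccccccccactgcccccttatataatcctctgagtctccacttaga
Gbp2: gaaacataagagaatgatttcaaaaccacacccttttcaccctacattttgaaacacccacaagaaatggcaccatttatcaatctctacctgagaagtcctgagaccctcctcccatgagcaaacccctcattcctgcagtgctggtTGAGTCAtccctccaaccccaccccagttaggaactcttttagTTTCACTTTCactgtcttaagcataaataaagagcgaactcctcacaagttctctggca
Cxcl10: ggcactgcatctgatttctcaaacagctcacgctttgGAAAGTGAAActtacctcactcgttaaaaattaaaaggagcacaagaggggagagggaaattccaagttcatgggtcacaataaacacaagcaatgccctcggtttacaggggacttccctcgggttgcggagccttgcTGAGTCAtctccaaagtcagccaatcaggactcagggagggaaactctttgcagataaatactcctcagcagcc

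Both strands were searched for 4 motifs: the kB motif (GGG, 2 bases of any kind, then TTTCC), the ISRE core (GAAA, 2 bases of any kind, then GAAA), the AP-1 site (TGANTCA, where N is any base) and the C/EBP site (TTGCNNAA). Cxcl2 held kB matches at -97 to -88 and -78 to -69, counted back from the start site. Cxcl1 held one at -89 to -80 on the opposite strand and one at -71 to -62. Il6 held a kB match at -44 to -35, a C/EBP match at -128 to -121 and an AP-1 match at -249 to -243. ISRE cores lay at -156 to -147 and -122 to -113 in Ifit3, at -59 to -50 in Gbp2 and at -213 to -204 in Cxcl10 and each of these windows also held an AP-1 match, at -56 to -50, -102 to -96 and -74 to -68. No match overlapped another. The GAS motif of STAT factors (TTC, 3 bases of any kind, then GAA), the CRE (TGAC followed by GTCA) and the TATA box (TATAAA) were searched too and had no match in these 6 stretches. They occurred in 8.3%, 1.79% and 13.6% of all promoter windows, and the C/EBP site in 10.8%. A promoter window of 250 bases before to 50 after the start was found for 9887 of the 12393 genes tested. The kB motif occurred in 1.63% of all 32851 promoters in the table, 1.99% of those 9887 and 9.68% of the 62 genes with a window that rose at least 8-fold. The ISRE core occurred in 3.44%, 3.84% and 17.7%, and the AP-1 site in 7.81%, 7.69% and 30.6%. The other motifs were also more frequent in the 62 genes than in the 9887. Shares in the 9887 and the 62 were 11.1% and 21.0% for the C/EBP site and 11.9% and 29.0% for the TATA box. For the GAS motif they were 8.45% and 17.7%, and for the CRE 2.99% and 4.84%. Of the 17 interferon-stimulated antiviral genes with a window, 64.7% held an ISRE core and 41.2% a GAS motif. Of the 19 chemokine genes with one, 21.1% held a kB match and 42.1% a TATA box. These are descriptions of letters in a window, and binding was not measured.

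Mmp13, a secreted collagenase, had the largest rise. It read 13, 11 and 8 in the controls and 3455, 2349 and 3637 after LPS. All 3 LPS arrays stood far above the controls, which were at the bottom of the scale (8.21 ± 0.35, adjusted p = 1.84e-06).

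Cytokine genes rose broadly, with 12 of 21 measured members higher and 0 lower (median log2 change 1.39, against -0.06 over all genes); 1 was lower without control 1 or without LPS 2. Il6, whose product induces acute phase proteins in the liver, was at 11, 59 and 13 before and 3021, 2069 and 3063 after LPS. Control 2 was the highest control, and every LPS array exceeded it many times over (7.04 ± 0.61, adjusted p = 8.11e-05). Csf3, which encodes the granulocyte growth factor G-CSF, went from 15, 28 and 15 to 731, 1032 and 545. The groups lay far apart (5.33 ± 0.31, adjusted p = 7.6e-06). Ifng, the gene of interferon gamma, read 18, 16 and 15 and then 193, 115 and 260. It was lowest in LPS 2 among the LPS arrays (3.46 ± 0.36, adjusted p = 0.000258).

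Il1b, the gene of the fever-inducing cytokine interleukin 1 beta, had 121, 450 and 275 in the controls and 2150, 897 and 2768 after LPS. LPS 2 again was the lowest of its group, still above control 2 (2.83 ± 0.58, adjusted p = 0.00966). Lif, a cytokine of the IL-6 family, rose from 20, 19 and 20 to 179, 143 and 130 (2.92 ± 0.20, adjusted p = 2e-05). Its other probe set changed by 0.47 and was not called. Il15, which sustains NK cells and memory T cells, rose from 42, 43 and 53 to 317, 221 and 404 (2.74 ± 0.24, adjusted p = 9e-05). Neither Lif nor Il15 showed overlap between the groups on the probe set used.

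Tnf did not pass the test. Tnf, the gene of tumour necrosis factor, stood at 66, 111 and 72 in the knockout controls and 121, 145 and 120 after LPS. The LPS arrays were all above the controls, but the highest control came close to the lowest LPS array (0.67 ± 0.29, adjusted p = 0.178). In wild-type spleen the change was 2.37 ± 0.29 (adjusted p = 0.00112), and the difference between the genotypes, -1.70 ± 0.41, had an adjusted p of 0.408. The knockout change had an adjusted p between 0.048 and 0.353 over the 22 alternative analyses, passing with cyclic loess alone.

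Chemokine genes made up much of the top of the list. Of the 15 CC chemokine genes 8 rose and 0 fell (median 2.30), and of the 13 CXC and CX3C genes 8 rose and 1 fell (median 2.39). Cxcl2, a neutrophil attractant, read 12, 53 and 18 in controls and 2753, 2353 and 2511 after LPS. Its neighbour Cxcl1 read 16, 94 and 28 in controls and 4822, 3177 and 3828 after LPS. In both, control 2 was the highest control and still far below every LPS array (Cxcl2 6.81 ± 0.45, adjusted p = 1.59e-05; Cxcl1 6.80 ± 0.63, adjusted p = 0.000121). Cxcl5, also a neutrophil attractant, went from 8, 32 and 8 to 783, 557 and 1073 (5.93 ± 0.74, adjusted p = 0.000721).

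Ccl3 and Ccl4, which attract monocytes and lymphocytes, behaved evenly across the LPS arrays. Ccl3 was at 19, 55 and 19 and then 2517, 2498 and 2883 (6.60 ± 0.40, adjusted p = 9.15e-06). Ccl4 was at 39, 60 and 49 and then 3299, 4141 and 3629 (6.24 ± 0.30, adjusted p = 2.85e-06). Ccl2 and Ccl12, ligands of the monocyte receptor CCR2, rose as well. Ccl2 had 20, 68 and 25 in controls and 1687, 1205 and 2222 after LPS (5.67 ± 0.41, adjusted p = 2.53e-05), and Ccl12 had 13, 18 and 19 in controls and 879, 1352 and 767 after LPS (5.88 ± 0.23, adjusted p = 1.38e-06). Their relatives Ccl7 (3.44 ± 0.21, adjusted p = 9.49e-06) and the eosinophil attractant Ccl11 (3.97 ± 0.44, adjusted p = 0.000359) followed from lower LPS levels of 154 to 192 and 152 to 244.

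The 3 ligands of CXCR3, which draws activated T and NK cells, all rose. Cxcl11 read 14, 32 and 13 in the controls and 1707, 2143 and 1599 after LPS. Cxcl10 read 199, 784 and 218 in controls and 7196, 5899 and 7668 after LPS, and Cxcl9 read 310, 624 and 455 in controls and 3136, 1934 and 3732 after LPS. Control 2 was the highest control for all 3, and no control reached an LPS array. The changes were 6.65 ± 0.36, adjusted p = 5.05e-06 for Cxcl11, 4.41 ± 0.43, adjusted p = 0.000185 for Cxcl10 and 2.67 ± 0.43, adjusted p = 0.00272 for Cxcl9. The single CXC gene that fell, Cxcl12 (-0.98 ± 0.23, adjusted p = 0.0202), encodes a stromal chemokine that retains cells in the marrow; its call was lost without control 2, control 3, LPS 1 or LPS 3.

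**Figure D3:**
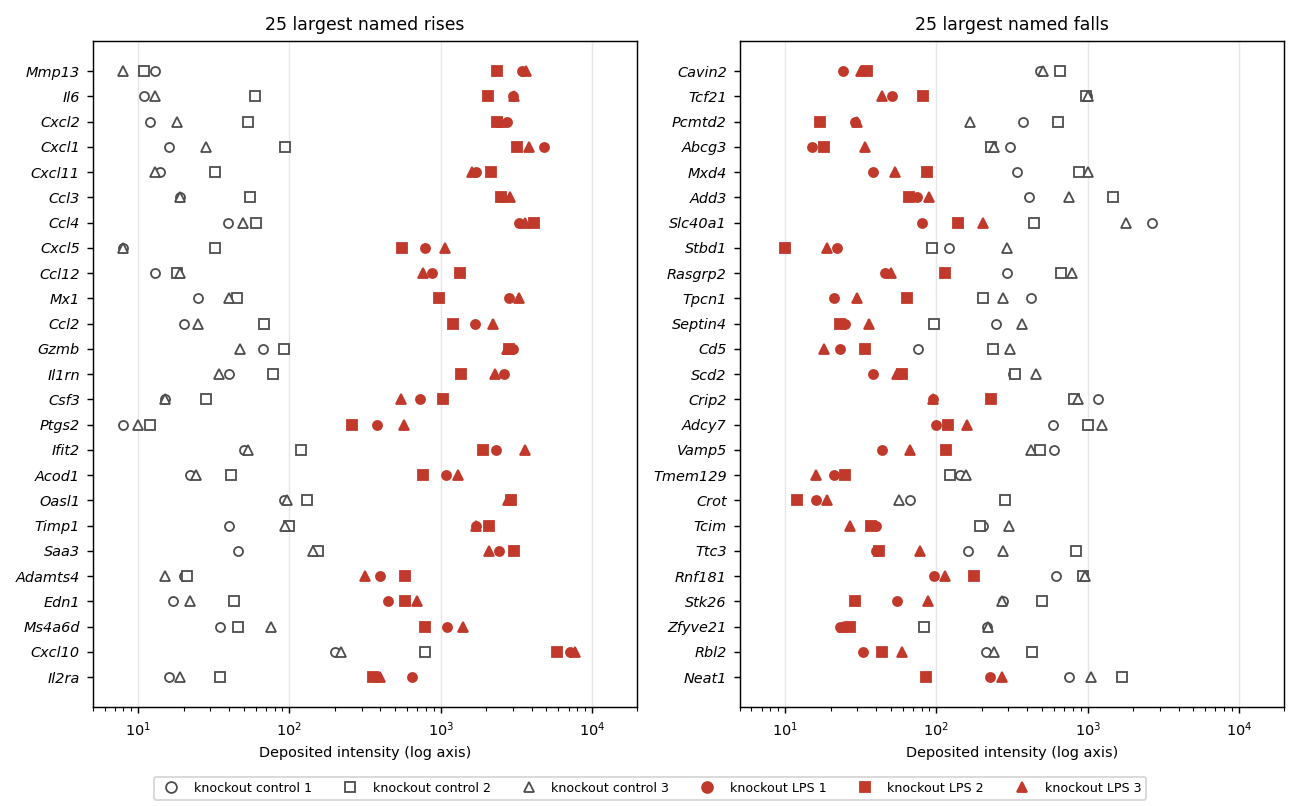
Deposited intensity (log axis) of the 25 largest named rises (left) and falls (right) on each knockout array, open symbols for controls 1 to 3 and filled symbols for LPS 1 to 3. In none of the 50 genes do the groups overlap, and for Il6, Cxcl1 and Cxcl2 control 2 is the highest control.

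Genes that restrain inflammation rose in the same spleens. Among 19 feedback and anti-inflammatory regulators 14 rose and 0 fell (median 2.40). Il10, the main anti-inflammatory cytokine gene, was at 13, 17 and 14 in the controls and 305, 215 and 214 after LPS. Its LPS arrays were close together and well above the controls (4.05 ± 0.23, adjusted p = 7.6e-06). Il1rn, which encodes the antagonist of the interleukin 1 receptor, went from 40, 78 and 34 to 2613, 1356 and 2292 (5.41 ± 0.35, adjusted p = 1.57e-05). Socs3, an inhibitor of STAT3 signalling, went from 58, 259 and 260 to 2888, 3304 and 2578. Control 1 was low for Socs3, and the other controls were also far below LPS (4.21 ± 0.47, adjusted p = 0.000354). Cd274, which encodes the checkpoint ligand PD-L1, rose from 83, 295 and 118 to 2320, 1215 and 2599 (3.77 ± 0.50, adjusted p = 0.00102). The repressor genes Atf3 (3.83 ± 0.42, adjusted p = 0.000323) and Nfil3 (3.74 ± 0.27, adjusted p = 2.77e-05) rose by similar amounts.

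A list of RNA-binding protein genes, not all of whose products act on AU-rich elements, held 9 measured members. These elements are sequences that destabilise many cytokine mRNAs, and their control involves p38. Of the 9 genes 2 rose (22.2%, against 5.54% of all genes) and 0 fell (median 0.68), and 1 rose without any one of the LPS arrays. Zc3h12a, whose product Regnase-1 degrades cytokine mRNAs, had 29, 107 and 131 in controls and 374, 553 and 288 after LPS, with the controls below all LPS arrays (2.40 ± 0.48, adjusted p = 0.00917). Zfp36l1 rose by 0.92 ± 0.23, adjusted p = 0.0263, a call lost without control 1, control 2 or any single LPS array (adjusted p up to 0.105). Zfp36, the gene of tristetraprolin, read 350, 1464 and 896 in controls and 2127, 2784 and 1846 after LPS and did not pass (1.52 ± 0.48, adjusted p = 0.0656).

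Among the 12 DUSP genes measured, 3 rose and 1 fell (median 0.11), and 2 fell without wild-type control 1. That is 33.3% called, against 15.2% of all genes, 5.54% higher and 9.71% lower. Besides Dusp1, Dusp16, which encodes a JNK phosphatase, rose from 101, 193 and 160 to 1163, 755 and 1110. The groups were well apart (2.76 ± 0.31, adjusted p = 0.000402). Dusp2, a phosphatase of activated immune cells, rose from 181, 684 and 672 to 2110, 2788 and 1826, with control 1 well under the other controls (2.34 ± 0.51, adjusted p = 0.013). Dusp3 fell from 301, 511 and 524 to 133, 196 and 150 (-1.46 ± 0.23, adjusted p = 0.0027), although the log2 changes of its 2 probe sets ran from -1.46 to 0.38 and their mean was not called.

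The MAP kinase genes moved in both directions, with 4 of 18 higher and 4 lower (median -0.39). Map3k8, the kinase that links TLR4 to ERK, read 50, 80 and 80 in controls and 938, 483 and 1109 after LPS. LPS 2 was the lowest LPS array and still far above the controls (3.54 ± 0.36, adjusted p = 0.000236). Map2k1, which encodes the ERK kinase MEK1, rose from 294, 300 and 436 to 1025, 883 and 822 (1.42 ± 0.19, adjusted p = 0.000983), and Mapkapk2, the main effector kinase of p38, from 259, 380 and 484 to 814, 1239 and 788 (1.35 ± 0.28, adjusted p = 0.00953). Mapk14, the gene of p38 alpha, a DUSP1 substrate, fell from 823, 994 and 1190 to 144, 229 and 158 on the probe set with the highest level. No LPS array came near a control on it (-2.52 ± 0.22, adjusted p = 8.11e-05), but its 4 probe sets ranged from -2.52 to 0.13, so the direction for the gene differs by probe set. Map2k6, which activates p38, fell by -1.69 ± 0.29, adjusted p = 0.00396, and Mknk2, an effector kinase of ERK and p38, by -1.78 ± 0.33, adjusted p = 0.00627.

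NF-kB and receptor genes showed a few strong rises among many small changes. Of 12 NF-kB and IkB genes 4 rose and 0 fell, and the count was 2 without LPS 1 or without LPS 2. Nfkbiz, a nuclear IkB protein needed for Il6 induction, read 84, 71 and 185 in controls and 2121, 1783 and 1965 after LPS. Its 3 LPS values were close and all far above the controls (4.24 ± 0.33, adjusted p = 4e-05). Rel, the gene of the subunit c-Rel, rose from 29, 91 and 44 to 322, 251 and 319 (2.60 ± 0.35, adjusted p = 0.00114). Of 15 Toll-like receptor and adaptor genes 4 rose and 0 fell. Cd14, the LPS co-receptor, rose from 265, 321 and 232 to 3549, 3885 and 2883 (3.66 ± 0.23, adjusted p = 1.31e-05). The adaptor Myd88 (1.48 ± 0.24, adjusted p = 0.003) and the lipoprotein receptor Tlr2 (1.37 ± 0.23, adjusted p = 0.00384) rose less. Tlr4 was at 56, 90 and 39 in the controls and 33, 34 and 43 after LPS and did not pass (-0.68 ± 0.35, adjusted p = 0.275).

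Transcription factor genes of the AP-1 family, the targets of JNK and p38 signalling, were higher in 8 of 12 cases and lower in 0 (median 2.25). Maff read 17, 41 and 40 in controls and 222, 339 and 194 after LPS (3.01 ± 0.35, adjusted p = 0.000458). Jun was at 90, 498 and 322 in controls and 1410, 1864 and 1303 after LPS, and Fos at 28, 109 and 136 in controls and 314, 426 and 334 after LPS. For both, control 1 was lowest among the controls and no LPS array overlapped them (Jun 2.63 ± 0.58, adjusted p = 0.0141; Fos 2.25 ± 0.47, adjusted p = 0.0105). Batf, which acts in dendritic and T cells, rose from 108, 261 and 284 to 1406, 1465 and 916 (2.63 ± 0.42, adjusted p = 0.0027). Junb rose by 2.41 ± 0.53, adjusted p = 0.0132.

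Of 18 EGR, KLF, NR4A and other immediate-early genes 5 rose and 0 fell, or 1 fell without wild-type control 1 or 3. The growth arrest gene Gadd45g went from 31, 107 and 91 to 642, 698 and 647, with even LPS values (3.30 ± 0.38, adjusted p = 0.000475). Myc, the growth regulator, went from 357, 570 and 410 to 2662, 2613 and 1934 (2.44 ± 0.43, adjusted p = 0.00426), and Klf6 from 147, 239 and 193 to 790, 589 and 982 (2.02 ± 0.29, adjusted p = 0.00141). Egr1, a classical early target of ERK, read 140, 619 and 536 in controls and 366, 449 and 330 after LPS at this time (0.07 ± 0.51, adjusted p = 0.956). In the C/EBP family of 5, where 2 genes rose without knockout control 3 or wild-type control 1, Cebpb rose from 191, 240 and 536 to 1366, 1838 and 1119 (2.28 ± 0.41, adjusted p = 0.00484) and Cebpg fell from 187, 194 and 250 to 61, 23 and 36 (-2.50 ± 0.33, adjusted p = 0.000983).

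**Figure D4:**
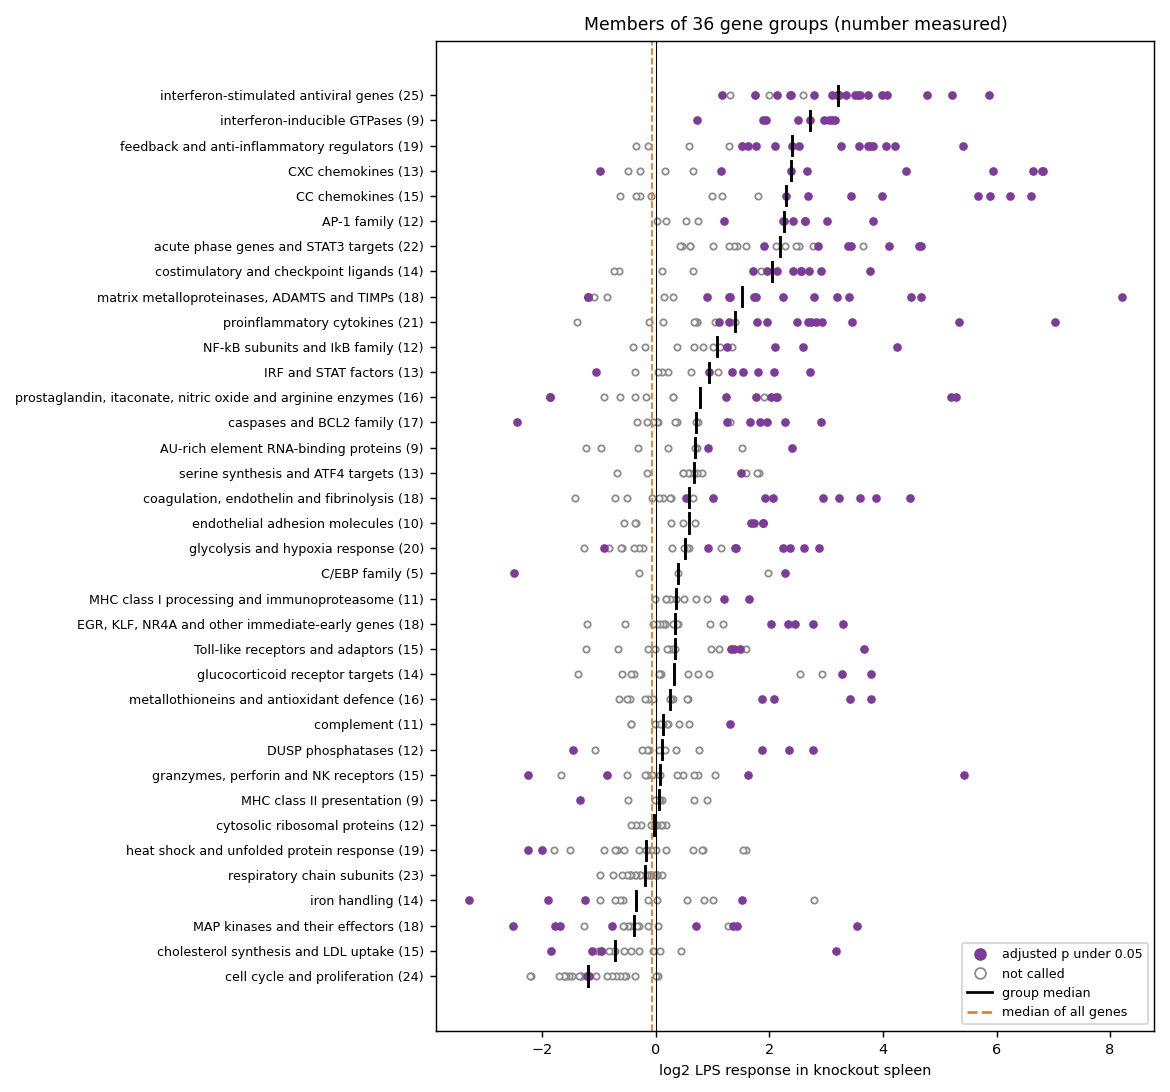
Log2 LPS response in knockout spleen of every measured member of 36 gene groups, ordered by group median (black bar), with genes at an adjusted p under 0.05 filled and the median of all genes dashed. Interferon-stimulated antiviral genes have the highest median (3.20) and cell cycle genes the lowest (-1.21), and no ribosomal or respiratory chain gene is called.

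Interferon-stimulated antiviral genes had the highest median of all groups, 3.20, with 20 of 25 higher and 0 lower. Mx1, a GTPase known for its action against influenza virus, was at 25, 45 and 40 in the controls and 2825, 969 and 3273 after LPS. LPS 2 was clearly the lowest LPS array (5.87 ± 0.64, adjusted p = 0.000323). Ifit2, which binds foreign RNA, was at 50, 119 and 53 in controls and 2333, 1898 and 3609 after LPS (5.21 ± 0.67, adjusted p = 0.000829). Oasl1, of the oligoadenylate synthetase family, was at 92, 130 and 96 in controls and 2885, 2926 and 2786 after LPS, even on the LPS arrays (4.77 ± 0.38, adjusted p = 5.03e-05). Zbp1, a sensor of nucleic acids that can start necroptosis, was at 90, 198 and 225 in controls and 2313, 2986 and 2754 after LPS (4.07 ± 0.31, adjusted p = 3.68e-05). Mx2 (3.98 ± 0.54, adjusted p = 0.00109) and Ifit3 (3.74 ± 0.69, adjusted p = 0.00593) rose with them.

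All 9 interferon-inducible GTPase genes, which act on vacuoles that hold pathogens, rose (median 2.71). Gbp2 read 228, 376 and 222 in controls and 2130, 1671 and 3385 after LPS (3.10 ± 0.36, adjusted p = 0.000462). Irgm1 read 222, 196 and 237 in controls and 1686, 797 and 2159 after LPS, and Gbp7 read 189, 67 and 117 in controls and 1022, 670 and 1531 after LPS. LPS 2 was the lowest LPS array for all 3, and none of them overlapped the controls (Irgm1 2.71 ± 0.47, adjusted p = 0.00412; Gbp7 3.16 ± 0.66, adjusted p = 0.011). The count of 9 fell to 5 without control 3, LPS 1 or LPS 3. Mean log2 levels of the group were 7.92, 8.12 and 7.94 in the controls and 10.6, 9.8 and 11 after LPS, and those of the antiviral genes 7.69, 7.71 and 7.41 and 10.8, 10.4 and 11.

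Among 13 IRF and STAT factor genes 6 rose and 1 fell, and 3 rose without control 1, LPS 1 or LPS 3. Irf7, the factor that amplifies interferon production, went from 451, 438 and 401 to 2658, 3187 and 2611, with no overlap (2.71 ± 0.26, adjusted p = 0.000165). Stat3, through which IL-6 and IL-10 signal, went from 398, 630 and 788 to 2822, 2542 and 2059 (2.07 ± 0.25, adjusted p = 0.000632). Stat5a rose by 1.34 ± 0.24, adjusted p = 0.00469. The fall of Irf3 (-1.05 ± 0.27, adjusted p = 0.0295) was lost without control 2, control 3, LPS 1 or LPS 3 (adjusted p up to 0.111).

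In the group of 16 prostaglandin, itaconate, nitric oxide and arginine enzymes 7 rose and 2 fell (median 0.77). Ptgs2, the inducible cyclooxygenase, read 8, 12 and 10 in controls and 381, 260 and 576 after LPS (5.29 ± 0.37, adjusted p = 2.14e-05). Acod1, which makes itaconate in macrophages, read 22, 41 and 24 in controls and 1085, 766 and 1294 after LPS (5.20 ± 0.30, adjusted p = 7.6e-06). For both, every LPS array lay far above every control. Nos2, the inducible nitric oxide synthase, was at 17, 28 and 17 in controls and 19, 33 and 24 after LPS, with overlapping groups (0.30 ± 0.24, adjusted p = 0.523). Cybb, the catalytic subunit of the phagocyte oxidase, rose from 267, 242 and 187 to 921, 959 and 1133 (2.12 ± 0.35, adjusted p = 0.003), and the mitochondrial superoxide dismutase Sod2 from 616, 722 and 585 to 2622, 2583 and 2621 (2.03 ± 0.13, adjusted p = 1.59e-05). Hpgd, which breaks down prostaglandins and marks red pulp macrophages, fell from 1233, 642 and 792 to 264, 156 and 311 (-1.87 ± 0.36, adjusted p = 0.00673).

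Matrix enzymes and their inhibitors were a second strong group, with 12 of 18 higher and 2 lower (median 1.52). Besides Mmp13, the inhibitor Timp1 read 40, 99 and 94 in controls and 1719, 2085 and 1722 after LPS, with even LPS values (4.67 ± 0.34, adjusted p = 2.68e-05). The aggrecanase Adamts4 read 20, 21 and 15 in controls and 400, 578 and 316 after LPS (4.50 ± 0.33, adjusted p = 2.89e-05). Mmp3, stromelysin, went from 10, 16 and 13 to 141, 87 and 197 and Adamts1 from 20, 106 and 36 to 369, 409 and 389. LPS arrays stayed above all controls for both, although control 2 was high for Adamts1 (Mmp3 3.39 ± 0.41, adjusted p = 0.000625; Adamts1 3.20 ± 0.57, adjusted p = 0.00486). The count of genes lower was 1 without control 2, control 3, LPS 1, LPS 3, wild-type control 2 or either of wild-type LPS 2 and 3.

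Of 22 acute phase genes and STAT3 targets 7 rose and 0 fell (median 2.19). Saa3, the serum amyloid made outside the liver, was at 46, 155 and 143 in controls and 2416, 3076 and 2096 after LPS (4.63 ± 0.41, adjusted p = 9.65e-05). Ptx3, a soluble pattern receptor, was at 10, 16 and 8 in controls and 183, 182 and 196 after LPS, nearly identical across LPS arrays (4.11 ± 0.34, adjusted p = 5.52e-05). Lcn2, which binds bacterial iron carriers, was at 531, 272 and 184 in controls and 3210, 3594 and 2874 after LPS (3.43 ± 0.55, adjusted p = 0.0027). The members made mainly by liver, such as Hpx (16, 671 and 193, then 324, 2312 and 871), varied with the liver markers and did not pass (2.77 ± 1.44, adjusted p = 0.27). Hpx is itself on the liver marker list, so its likeness to that list is partly built in. Alb, the albumin gene and also a liver marker, read 29, 5986 and 825 in controls and 424, 1655 and 2227 after LPS on these arrays.

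Coagulation and vessel genes also responded. Of 18 genes of coagulation, endothelin and fibrinolysis 9 rose and 0 fell (median 0.59), with 1 lower without LPS 2. Edn1, the vasoconstrictor endothelin 1, read 17, 43 and 22 in the controls and 446, 577 and 694 after LPS (4.48 ± 0.32, adjusted p = 2.18e-05). Plat, the tissue plasminogen activator, read 30, 24 and 37 in controls and 430, 625 and 313 after LPS (3.87 ± 0.31, adjusted p = 4.34e-05). Both rose without overlap. Tfpi2, a protease inhibitor, went from 14, 22 and 14 to 197, 145 and 263 (3.59 ± 0.46, adjusted p = 0.000864), and Procr, the endothelial protein C receptor, from 77, 266 and 155 to 1182, 1635 and 1354 (3.23 ± 0.49, adjusted p = 0.00215). Of 10 endothelial adhesion genes 4 rose and 0 fell. Icam1, a ligand for leukocyte integrins, rose from 298, 498 and 659 to 1649, 2050 and 1480 (1.89 ± 0.27, adjusted p = 0.00137), Selp from 34, 36 and 28 to 92, 143 and 84 (1.67 ± 0.21, adjusted p = 0.000842) and Sele from 11, 17 and 12 to 30, 62 and 61 (1.89 ± 0.36, adjusted p = 0.00716); Selp and Sele encode the P- and E-selectins on which leukocytes roll. The call of Sele was lost with intensities under 32 set to 32.

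Costimulatory and checkpoint genes rose in 9 of 14 cases and fell in 0 (median 2.05); 5 rose without LPS 1, and 2 fell without control 1. Cd40, which receives T cell help, was at 136, 455 and 249 in controls and 1885, 1084 and 1508 after LPS, with LPS 2 lowest after LPS (2.55 ± 0.41, adjusted p = 0.00278). Pdcd1lg2, the ligand PD-L2, was at 36, 36 and 72 in controls and 347, 328 and 227 after LPS (2.70 ± 0.31, adjusted p = 0.000418). Slamf1 rose by 2.42 ± 0.31, adjusted p = 0.00084. MHC class I processing genes rose in 2 of 11 cases, the loader Tapbp from 1702, 2220 and 2435 to 4385, 5730 and 4363 (1.19 ± 0.20, adjusted p = 0.00376) and the transporter Tap1 by 1.64 ± 0.34, adjusted p = 0.00974; the 4 probe sets of Tap1 ranged from -0.15 to 1.64. MHC class II genes numbered 9, of which 0 rose and 1 fell (11.1%, against 9.71% of all genes). The gene that fell was Ciita, their master regulator (-1.34 ± 0.39, adjusted p = 0.0483). That fall was lost without knockout control 2 or 3, any one knockout LPS array, wild-type control 2 or any one wild-type LPS array (adjusted p up to 0.15), and 1 class II gene rose without knockout control 3. Among 11 complement genes 1 rose (9.09%, against 5.54% of all genes). It was Cfb (1.31 ± 0.31, adjusted p = 0.0182), a call lost without LPS 1 or LPS 3 (up to 0.0591).

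Of 14 dendritic cell markers 5 rose and 1 fell; the count higher was 3 without LPS 1 or LPS 2, and the count lower was 2 without control 1 and 0 without any one of the knockout LPS arrays, wild-type control 2 or any one of the wild-type LPS arrays. Fscn1, the actin bundler of mature dendritic cells, read 41, 123 and 591 in controls and 1632, 2461 and 1399 after LPS. Its controls spread over more than 10-fold and still lay under every LPS array (3.63 ± 0.76, adjusted p = 0.0109). Ly75, the antigen receptor DEC-205, read 19, 18 and 32 in controls and 106, 112 and 140 after LPS (2.42 ± 0.26, adjusted p = 0.000318). Ccr7, which guides dendritic cells and T cells to the white pulp, rose by 2.10 ± 0.46, adjusted p = 0.013, a call lost without LPS 1 (0.0592). Itgax, the gene of CD11c, read 207, 608 and 468 in controls and 156, 209 and 176 after LPS and did not pass (-1.12 ± 0.35, adjusted p = 0.0598). In bulk RNA, a change in the number of cells of a type and a change in RNA per cell cannot be told apart.

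Gzmb, the gene of the cytotoxic protease granzyme B, had one of the 12 largest rises. It went from 67, 92 and 47 to 2994, 2830 and 2734, almost equal on the LPS arrays (5.43 ± 0.36, adjusted p = 1.64e-05). Gzma rose from 532, 495 and 197 to 1075, 1336 and 1037 (1.61 ± 0.34, adjusted p = 0.011). In the same group of 15, 2 genes rose and 2 fell (26.7% called, against 15.2% of all genes). The falls were of the NK receptor genes Klrd1, from 190, 235 and 289 to 42, 47 and 60 (-2.26 ± 0.50, adjusted p = 0.0137), and Ncr1 (-0.86 ± 0.19, adjusted p = 0.0131); both calls were lost without LPS 1 (up to 0.059 and 0.0597). Il2ra, the high-affinity interleukin 2 receptor chain of activated T cells, rose from 16, 35 and 19 to 645, 356 and 397 (4.35 ± 0.35, adjusted p = 4.67e-05).

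Among 17 caspase and BCL2 family genes 6 rose and 1 fell, but 1 to 3 rose without control 1, control 3, LPS 1 or LPS 3. Pmaip1, the death-promoting NOXA, went from 102, 199 and 185 to 904, 414 and 1141, lowest in LPS 2 within its group (2.28 ± 0.46, adjusted p = 0.00952). Casp9, the caspase of the mitochondrial pathway, fell from 82, 194 and 164 to 20, 27 and 30 (-2.44 ± 0.32, adjusted p = 0.000983). Its other probe set changed by -0.63 and was not called. Casp4, called caspase 11 in the mouse, which senses LPS inside cells, rose by 2.91 ± 0.67, adjusted p = 0.0177, a call lost without control 3, LPS 1 or LPS 3 (up to 0.0716).

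Metabolic and stress genes moved selectively. Of 20 glycolysis and hypoxia genes 7 rose and 1 fell, or 4 and 0 without LPS 1 or LPS 3; the falls numbered 0 without control 3 and 2 without wild-type control 1 or 3. Hif1a, the hypoxia factor, read 375, 683 and 521 in controls and 2482, 2192 and 2595 after LPS (2.24 ± 0.36, adjusted p = 0.00271). Hk2, an inducible hexokinase, read 87, 197 and 134 in controls and 913, 750 and 750 after LPS (2.60 ± 0.33, adjusted p = 0.000757), and Adm, a vasodilator peptide, 21, 49 and 41 in controls and 246, 317 and 216 after LPS (2.88 ± 0.40, adjusted p = 0.00128). No control reached an LPS array for these 3. Of 16 metallothionein and antioxidant genes 4 rose and 0 fell. Mt1 went from 951, 639 and 510 to 6709, 8439 and 6574 and Mt2 from 1132, 758 and 277 to 8372, 8829 and 8351; these metal-binding proteins were lowest in control 3 (Mt1 3.41 ± 0.29, adjusted p = 7.03e-05; Mt2 3.78 ± 0.51, adjusted p = 0.00105). Txnrd1, a thioredoxin reductase, rose evenly from 577, 389 and 494 to 1737, 1772 and 1761 (1.87 ± 0.20, adjusted p = 0.000304). Dusp1, a glucocorticoid receptor target in other tissues, was not on the list of 14 such targets measured here. Of these 14, 2 rose, Mt2 and the cell cycle inhibitor Cdkn1a, 93, 159 and 126 and then 1013, 1848 and 894 (3.27 ± 0.29, adjusted p = 0.000107).

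Heat shock and unfolded protein genes numbered 19, of which 0 rose and 2 fell (10.5%, near the 9.71% of all genes that fell). There was 1 higher without control 2, wild-type control 3 or wild-type LPS 1. Dnajb1 fell from 1006, 2476 and 1237 to 273, 410 and 252 (-2.26 ± 0.37, adjusted p = 0.00322) and Hsph1 from 551, 1120 and 703 to 199, 185 and 181 (-2.01 ± 0.34, adjusted p = 0.00384). Both are co-factors of HSP70 chaperones, and neither had overlapping groups on these probe sets. Each has 2 probe sets of which 1 was called. The other changed by -0.45 for Dnajb1 and -1.80 for Hsph1. Of 13 genes of serine synthesis and ATF4 targets 1 rose (7.69%, against 5.54% of all genes). It was Shmt2 (1.50 ± 0.44, adjusted p = 0.0491), a call lost without any one of the 6 knockout arrays or of wild-type control 2, LPS 2 and LPS 3 (up to 0.188). The list's count was 4 without wild-type LPS 1, 2 without knockout control 1 and 0 without any one of the other arrays named for Shmt2. In wild-type spleen 9 of the 13 rose (3.93% of all genes rose there), and no gene of the list differed between the genotypes at an adjusted p under 0.05. In the cholesterol group of 15, Ch25h, which makes 25-hydroxycholesterol, rose from 16, 74 and 56 to 382, 404 and 312 (3.17 ± 0.48, adjusted p = 0.00203), and 3 synthesis genes fell, or 5 without LPS 2. Lss fell from 64, 73 and 85 to 38, 36 and 39 (-0.97 ± 0.20, adjusted p = 0.0113), a call lost after quantile normalization, after the shift to a common median and with the mean of all probe sets. The falls of Dhcr7 (-1.84 ± 0.41, adjusted p = 0.0147), lost without control 3, LPS 1 or LPS 3 (up to 0.0691), and Fdps (-1.12 ± 0.24, adjusted p = 0.0112), whose 2 probe sets ranged from -1.12 to 0.05, were less firm. Of 23 respiratory chain and 12 cytosolic ribosomal protein genes, 0 were called in either direction; 1 respiratory chain gene was lower without control 1, control 3, LPS 2 or wild-type LPS 1.

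Among the named genes, the largest fall was that of Cavin2, a coat protein of caveolae, the small pits of the endothelial membrane. It read 484, 659 and 508 in controls and 24, 35 and 32 after LPS. The groups were more than 10-fold apart (-4.19 ± 0.25, adjusted p = 9.15e-06). Next came Tcf21, a transcription factor of splenic mesenchyme that is needed for the spleen to form, which read 995, 973 and 1008 in controls and 51, 82 and 44 after LPS. Its controls were nearly equal and all LPS arrays far lower (-4.12 ± 0.28, adjusted p = 2e-05). Tlx1, another factor required for spleen formation, fell from 117, 155 and 181 to 27, 27 and 26 (-2.48 ± 0.29, adjusted p = 0.000488), and Pdgfrb, a receptor of pericytes and fibroblasts, from 165, 156 and 360 to 35, 68 and 16 (-2.64 ± 0.49, adjusted p = 0.0059). Of 23 mesenchyme, stroma and smooth muscle markers 4 fell and 1 rose (21.7% called, against 15.2% of all genes). The rise was that of Col4a1 (1.32 ± 0.26, adjusted p = 0.00788), and 8 markers fell without control 1. The list's median was -0.13, and 0.09 with the arrays shifted to a common median.

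Endothelial markers fell in 9 of 21 cases and rose in 2, and the count of falls was 5 without control 2, LPS 1 or LPS 3. The count of rises was 1 without control 1, control 3, LPS 1, LPS 2, wild-type control 2 or wild-type LPS 3. Sox18, an endothelial transcription factor, went from 179, 299 and 215 to 29, 38 and 49 (-2.58 ± 0.40, adjusted p = 0.00225). Stab2, the scavenger receptor of sinus endothelium, went from 816, 1241 and 871 to 216, 455 and 261 (-1.70 ± 0.28, adjusted p = 0.00297), and Cav1, the main protein of caveolae, from 295, 138 and 242 to 67, 54 and 87 (-1.66 ± 0.32, adjusted p = 0.00782). None of these overlapped. Cav2 fell by -2.33 ± 0.41, adjusted p = 0.00453 on its brighter probe set, while its 2 probe sets ranged from -2.33 to 0.24. Cdh5, the junction protein VE-cadherin, rose from 36, 50 and 76 to 156, 259 and 123 (1.73 ± 0.36, adjusted p = 0.0106). Its other probe set changed by 0.27 and was not called. Mean log2 levels of the list were 6.72, 7.25 and 7.04 in the controls and 6.23, 6.65 and 6.19 after LPS.

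Among other large falls, Rasgrp2, an activator of the GTPase RAP1 in platelets, read 292, 672 and 791 in controls and 46, 114 and 50 after LPS (-3.07 ± 0.46, adjusted p = 0.00203). Mxd4, a MAX partner that opposes MYC, read 341, 881 and 1000 in controls and 38, 87 and 53 after LPS (-3.58 ± 0.43, adjusted p = 0.000603). Its 4 probe sets ranged from -3.58 to -0.33, and 2 were called. Scd2, a fatty acid desaturase, read 321, 333 and 453 in controls and 38, 59 and 55 after LPS, tightly grouped on both sides (-2.87 ± 0.22, adjusted p = 3.36e-05). Adcy7, an adenylyl cyclase of blood cells, read 589, 999 and 1239 in controls and 100, 119 and 159 after LPS (-2.86 ± 0.38, adjusted p = 0.000985). Neat1, a long noncoding RNA that builds paraspeckles, fell from 749, 1691 and 1057 to 228, 85 and 271, and the LPS arrays stayed below every control (-2.66 ± 0.57, adjusted p = 0.0117). Pparg, a lipid-sensing receptor that also acts in macrophages, fell from 113, 135 and 82 to 23, 32 and 25 (-2.03 ± 0.28, adjusted p = 0.00119).

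Of 18 markers of red pulp and marginal zone macrophages 5 fell and 0 rose, or 3 without LPS 1. Slc40a1, the iron exporter ferroportin, read 2684, 440 and 1800 in controls and 80, 139 and 203 after LPS. The controls spread widely, control 2 being lowest, and all LPS arrays lay under them (-3.29 ± 0.62, adjusted p = 0.00643). Cd5l, a secreted macrophage protein, went from 2395, 1780 and 2845 to 713, 909 and 933 (-1.44 ± 0.23, adjusted p = 0.00242). Cd163, the haemoglobin scavenger, fell by -1.90 ± 0.41, adjusted p = 0.013, a call lost without LPS 1 (0.0571). Adgre1, the gene of F4/80, read 651, 579 and 472 in controls and 336, 363 and 363 after LPS and did not pass (-0.67 ± 0.24, adjusted p = 0.0967). In the iron group of 14, 3 fell and 1 rose (28.6% called, against 15.2% of all genes, 9.71% lower and 5.54% higher). Slc39a14, which imports zinc and iron, rose by 1.52 ± 0.35, adjusted p = 0.0164, a call lost without LPS 1 (0.0666), and 3 genes of the group rose without control 1. Of 9 monocyte markers 2 rose (22.2%, against 5.54% of all genes), while the list's median was -0.33. The genes that rose were Cd14 and the Fc receptor gene Fcgr4. Fcgr4 read 252, 279 and 399 in controls and 1692, 1136 and 1779 after LPS (2.31 ± 0.27, adjusted p = 0.000456). Of 15 neutrophil markers 1 rose, Lcn2 (6.67%, against 5.54% of all genes). The list's mean log2 level was 8.51, 7.23 and 7.06 in the controls and 7.07, 7.71 and 7.2 after LPS.

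Of 12 B cell markers 4 fell and 0 rose, or 2 without control 2, LPS 1 or LPS 3. Cd79b, a signalling chain of the B cell receptor, read 1380, 4196 and 3431 in controls and 469, 610 and 805 after LPS. Control 1 was the lowest control and still above the LPS arrays (-2.14 ± 0.40, adjusted p = 0.00596). Fcer2a, the gene of CD23 on follicular B cells, went from 390, 1182 and 1127 to 131, 154 and 116 (-2.60 ± 0.47, adjusted p = 0.0051). Ms4a1, the gene of CD20, read 1428, 960 and 1698 in controls and 1167, 524 and 1735 after LPS and did not pass (-0.38 ± 0.49, adjusted p = 0.719). Of 18 T cell markers 2 fell and 1 rose (16.7% called, near the 15.2% of all genes, 9.71% lower and 5.54% higher). Without control 1 there were 5 falls, and 0 rose without LPS 1. Cd3g, a chain of the T cell receptor complex, went from 180, 578 and 606 to 86, 87 and 74 (-2.28 ± 0.44, adjusted p = 0.00753) and Cd5, a coreceptor on T cells and some B cells, from 76, 238 and 306 to 23, 34 and 18 (-2.87 ± 0.50, adjusted p = 0.00433). Mean log2 levels were 6.74, 8.17 and 8.29 in the controls and 7.11, 7.36 and 7.18 after LPS for the T cell list, and 8.76, 10 and 9.85 and 8.69, 8.76 and 8.78 for the B cell list, so control 1 stood below the LPS arrays in T cell markers and among them in B cell markers. Of 7 plasma cell markers 2 rose and 1 fell (42.9% called, against 15.2% of all genes), and the list's median was -0.20. The count higher was 1 without control 1, control 2, LPS 1 or LPS 3. Prdm1, the plasma cell factor BLIMP-1, rose from 49, 50 and 76 to 228, 178 and 225 (1.87 ± 0.24, adjusted p = 0.000874). Tnfrsf17, another of these markers, fell (-1.25, adjusted p = 0.0222), a call lost without control 3, LPS 1 or LPS 3.

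Cell cycle genes had the lowest group median, -1.21, yet 2 of 24 fell (8.33%, against 9.71% of all genes) and 0 rose. The group's mean log2 level was 9.66, 7.6 and 7.55 in the controls and 7.02, 7.31 and 7.11 after LPS, with control 1 far above the rest, as for the red cell precursor markers. Mcm7, a subunit of the replicative helicase, went from 4235, 1818 and 1809 to 1035, 1104 and 965 (-1.22 ± 0.31, adjusted p = 0.0252). Bub1b, a mitotic checkpoint kinase, went from 355, 142 and 150 to 88, 94 and 80 (-1.17 ± 0.31, adjusted p = 0.0307). Both calls were lost without LPS 1, LPS 2 or LPS 3 (up to 0.0836 and 0.101), and 5 genes fell without control 3. Mki67, the proliferation marker, read 2512, 493 and 277 in controls and 58, 372 and 163 after LPS and did not pass (-2.20 ± 0.99, adjusted p = 0.194).

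Within the LPS group, LPS 2 and LPS 3 were each more often the lowest array among risen genes than LPS 1. Of the 686 risen genes the lowest LPS value was in LPS 1 for 111, in LPS 2 for 280 and in LPS 3 for 295. Among the controls, the highest value was in control 1 for 116 of these genes, in control 2 for 317 and in control 3 for 253. Of the 1203 fallen genes, the lowest control was control 1 for 683, control 2 for 265 and control 3 for 255.

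The wild-type arrays address whether the response differed with the genotype. In wild-type spleen 1002 genes were called (8.09%), 487 higher (3.93%) and 515 lower (4.16%). The knockout and wild-type comparisons set different arrays against each other. Both came from the same model, so they share the variance estimate of each probe set and their calls are not independent. Of the 1889 genes called in knockout, 737 were called in the same direction in wild type, which is 39% of the knockout calls and 73.6% of the wild-type calls, and 0 in the opposite direction. Over the 12393 genes the correlation of both responses was 0.801 (Pearson; Spearman 0.70), as a description across genes, which are not independent. The 1152 genes called in knockout but not in wild type had the same sign there in 93.8% of cases. Among them, the 322 that rose had a median log2 change of 1.44 in knockout and 0.62 in wild type, and the 830 that fell had -1.26 and -0.57. They were chosen by the knockout value, so the larger knockout medians are no test of a difference.

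The test of the difference itself, the interaction of LPS and genotype in limma, called 0 genes. At an unadjusted p under 0.05 there were 800 (6.46% of genes), and the smallest adjusted p was 0.164. It belonged to Serpinb2, a protease inhibitor of activated macrophages, named here after its values were seen. Serpinb2 went from 10, 10 and 11 to 119, 60 and 173 in knockout spleen, whereas the wild-type values were 11, 13 and 10 before and 13, 10 and 10 after LPS. Every knockout LPS array stood clear of the knockout controls, while the wild-type groups overlapped (difference 3.42 ± 0.45). It passed without knockout LPS 2 (adjusted p = 0.00377). Xist, a sex-linked gene, passed without wild-type control 1, but the sex of the mice is not given. The wild-type level of Il6 was 13, 11 and 14 without LPS and 603, 183 and 585 with it, under every knockout LPS array, yet the difference of the responses, 2.05 ± 0.86, had an adjusted p of 0.899 (unadjusted 0.0377). For Il10 this difference was 1.69 ± 0.33 (adjusted p = 0.272), for Ccl4 2.37 ± 0.43 (adjusted p = 0.262), for Ccl3 1.81 ± 0.56 (adjusted p = 0.66) and for Edn1 2.34 ± 0.45 (adjusted p = 0.265). Slc40a1, whose fall was -6.37 ± 0.62 in wild type, had a difference of 3.08 ± 0.88 (adjusted p = 0.571). With 3 animals a group, differences of this size did not pass after adjustment over all probe sets.

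**Figure D5:**
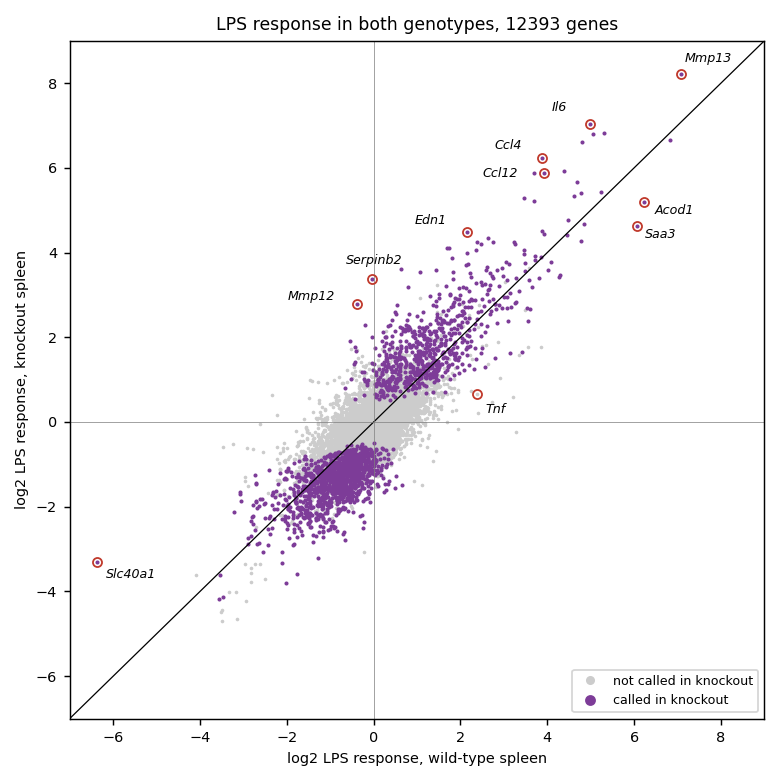
Log2 LPS response in wild-type spleen (horizontal) against knockout spleen (vertical) for 12393 genes, with genes called in knockout in colour, the line of equal response in black and 11 genes circled. Il6, Ccl4, Ccl12, Edn1, Serpinb2 and Mmp12 lie above the line and Tnf below it, and no gene passes the test of the difference.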

How the data were processed

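Total RNA from single mouse spleens was hybridised to 12 Affymetrix MOE430A 2.0 arrays, 3 in each of 4 groups. The authors obtained the intensity of each probe set with the RMA algorithm (R package affy), per the series design text and the submitters' processing notes; the deposited values are whole numbers on a linear scale. They were converted here to log2, and 64 control probe sets were left out. A gene is represented by the probe set with the highest mean that names it alone (20380 of 22626 probe sets; 691 name several and 1555 none). A model with 4 group means was fitted on all 12 arrays with limma 3.58.1 in R 4.3.3, with two-sided moderated tests and Benjamini-Hochberg adjustment, and was tested on simulated data. Named genes are the 25 largest rises and falls without overlap whose mean exceeds the 40th percentile, up to 6 called members of each of 54 lists, and 13 genes always shown, Tnf, Il6 and Dusp1 among them. Adgre1, Alb, Cxcl12, Egr1, Hpx, Itgax, Mki67, Ms4a1, Serpinb2, Tlr4 and Zfp36 were named after their values were seen. The members and lists were chosen with earlier results of these data known. Not every probe set of a named gene was called. For example, 1 of 2 was called for Selp (0.65 to 1.67) and Slc39a14 (0.52 to 1.52). For Rasgrp2 (-3.07 to -0.75) and Scd2 (-2.87 to -0.80) it was 2 of 3. Alternatives were other scalings, filters, a floor, other variance models, a replicate block and leaving out each array.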

Additional observations from a re-analysis of the deposited data

Results flagged for a closer look

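Mmp12, the macrophage metalloelastase, moved one way in knockout spleen and not that way in wild-type spleen. It read 14, 40 and 20 in knockout controls and 176, 61 and 342 after LPS, with every LPS array higher (2.79 ± 0.54, limma adjusted p = 0.00736), and 25, 21 and 23 and 16, 17 and 20 in wild type (-0.38 ± 0.54, adjusted p = 0.809). The difference of the responses was 3.17 on the log2 scale, with an unadjusted p of 0.00166 and an adjusted p of 0.412 in limma's interaction test, so it did not pass.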

How the results depend on the processing

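Of the 686 rises and 1203 falls, 419 and 569 were called without knockout LPS 1, and leaving out each array in turn gave 419 to 708 rises, 569 to 1435 falls and 0 to 1 gene with a genotype difference. Fewer falls were called without knockout LPS 3 (660). The 6 knockout arrays alone gave 437 and 575. The counts of falls were 759 with arrays shifted to a common median and 761 with a floor of 32. Genotype differences numbered 2 with the floor (F3 and Ptx3), 1 with an intensity trend or without knockout LPS 2 (Serpinb2), and 1 without wild-type control 1 (Xist). Xist is sex-linked and its log2 difference was -5.53. In knockout spleen the 4 sex-linked genes measured, Xist among them, changed by -0.246 to 0.126. The Xist difference thus lay between the wild-type groups. The sex of the mice is not given, so sex and LPS cannot be told apart there for Xist. The cause of these changes in the counts was not tested. Over all alternatives, the named genes gave 4060 values that kept call and direction, 310 that lost the call, 1 that gained it (Tnf with cyclic loess) and 0 that changed sign. Lost calls among the 199 named genes numbered 44 with the 6 knockout arrays alone, 28 with the floor, 24 with the replicate block, 12 with the mean of all probe sets and 10 with the common median. Replicate numbers did not pair the samples (correlations of same-numbered knockout deviations 0.0608, -0.123 and -0.272); with a replicate block 550 genes rose and 828 fell. Low control intensities and 3 arrays a group limit the precision of the folds.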
